A study of Saccharomyces cerevisiae with 3 samples.

Results

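The G0 array is 1 of the 3 two-colour arrays in a study of budding yeast moved from a carbon source that it can ferment to one that it can only respire. It was chosen by its title, and the G0 sample is read here as the culture before the move, since the labels do not spell out the letter. Per the labels, the Cy5 channel held RNA of a fraction called Poly, read as polysomes, and the Cy3 channel held RNA of the mRNP fraction of the same sample. No label names the strain, its genotype or the medium. Of 5574 genes named on the platform, 5548 had a value on this array. There was 1 array, with no replicate and no dye swap, so nothing below carries a test, and values describe this hybridisation.

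Polysomes are mRNAs that carry several ribosomes at once, while the lighter mRNP fraction holds mRNAs bound by proteins but by few or no ribosomes. The ratio of an mRNA between these fractions is widely used as a measure of how much of it is engaged in translation. In yeast, growth on a fermentable sugar is accompanied by heavy translation of enzymes of glycolysis and of the translation apparatus. Initiation, the joining of a ribosome to the mRNA, is commonly the slow step, and a longer coding sequence has room for more ribosomes at a given rate of initiation.

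Each value is a log ratio of the fractions, taken as base 2, with the array median at 0 and the spots of a gene averaged. The sources used here state neither the base nor the direction. Higher values are read as more of the mRNA in the polysome fraction, because red over green is the usual convention. This reading is an assumption, and the values do not settle it. GCN4, whose mRNA has short upstream reading frames that hold back its translation in well-fed cells, lay at −0.93, but this is 1 gene. Of the 15 genes in its list 9 lay above 0 and the list median was 0.05. That list also holds genes of the Gcn2 kinase pathway, so its median cannot show the direction. The title names mRNP before Poly, which could be read the other way, and in that case every sign below turns. Because the array median is set to 0, the share of all mRNA that was in polysomes cannot be read from these values. Channel intensities were not used here, so the signal over background behind each value is unknown.

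Over the 5548 genes the middle 50% lay between −0.40 and 0.48, and the range was −3.23 to 5.30. At least 1 log2 unit above the array median lay 514 genes (9.26%), and at least 1 unit below it lay 253 genes (4.56%). Above the median by any amount were 2789 genes (50.3%). These shares are the background for the counts of every gene list below. Members at the threshold were YNL190W at 1.0005, just inside, and LAP2 at 0.9975, just outside. On the low side MAL12 stood at −1 and TEN1 just outside at −0.9995.

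The error that can be measured is that between repeat spots. For 882 genes with 2 spots the SD of a single spot was 0.453, which gives an SD of 0.640 for the difference of 2 genes with 1 spot each. In this set, 93 genes (10.5%) had spots that differed by 1 unit or more, and for 28.2% the spots lay on opposite sides of the array median. Of the 60 genes whose 2 spots averaged at least 1 above the median, 41 had both spots at least 1 above and all 60 had both above 0. Of the 32 that averaged at least 1 below, 20 had both spots at least 1 below and all 32 had both below 0. Both sets were picked by the mean of these same spots, so agreement in sign was largely set by that choice. Variation from one culture or one hybridisation to the next is not part of the error between repeat spots. A single gene with 1 spot is therefore read less firmly than the median of a list.

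Among 83 gene lists that together held 2170 measured genes, 58 had a median above 0 and 25 a median below it. The medians of 9 lists lay at or above 1. These were upper and lower glycolysis, the tricarboxylic acid cycle, translation elongation, cytosolic aminoacyl-tRNA synthetases, vacuolar hydrolases and 3 lists of amino acid synthesis. Vacuolar hydrolases, at 1.10, lay under 1 when spots were centred within blocks of rows (0.95) or gene span was allowed for (0.96), and 8 lists lay at or above 1 under each. No list had a median at or below −1, and the lowest was that of the subtelomeric COS and PAU families at −0.78.

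**Figure D1:**
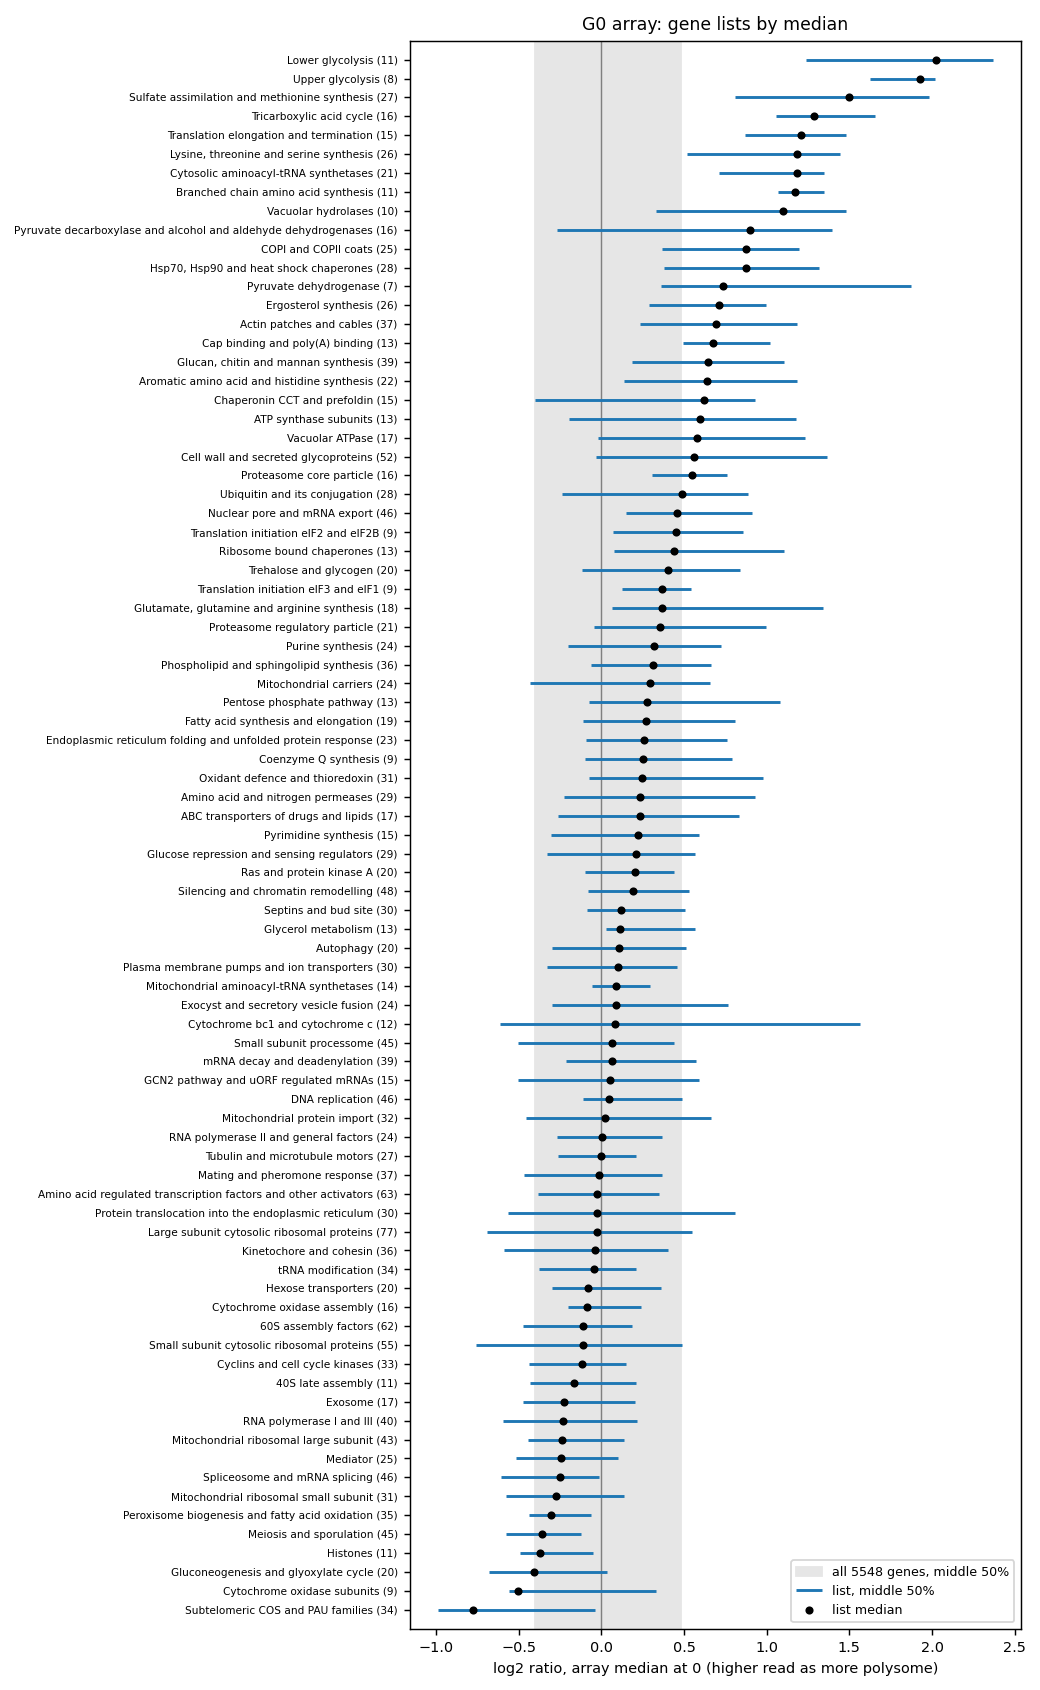
Each row is 1 gene list, with its number of measured genes in brackets, and the horizontal axis is the log2 ratio with the array median at 0; the legend defines the mark for the list median and the line for its middle 50% of genes, and the grey band spans the middle 50% of all 5548 genes. Both glycolysis lists stand at the top with medians of 2.02 and 1.93, and the COS and PAU families stand at the bottom with −0.78.

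The 2 glycolysis lists had the highest medians of the 83 lists. Other lists of carbon metabolism, the tricarboxylic acid cycle apart, had medians from 0.90 for fermentation down to −0.41 for gluconeogenesis and the glyoxylate cycle. All 8 measured genes of upper glycolysis, which turns glucose into triose phosphates, lay at least 1 above the median (list median 1.93). TPI1, triose phosphate isomerase, had 2.06 and GLK1, glucokinase, had 2.06. The lowest of this list were HXK2, the main hexokinase, at 1.36 and PFK2, a subunit of phosphofructokinase, at 1.22. In lower glycolysis, which yields pyruvate and ATP, 8 of 11 genes lay at least 1 above (median 2.02), led by the enolase ENO2 at 2.59 and glyceraldehyde-3-phosphate dehydrogenase TDH1 at 2.56. TDH1, TDH2 (2.02) and TDH3 (1.91) are near-identical, as are ENO1 (2.27) and ENO2, so spots of one can take up mRNA of another. The 3 members that did not pass 1 unit were PYK2, the minor pyruvate kinase, at 0.58 and the phosphoglycerate mutase homologues GPM2 at −0.21 and GPM3 at −0.74.

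Fermentation from pyruvate to ethanol and acetate gave a mixed list, with 8 of 16 genes at least 1 above and a median of 0.90. The pyruvate decarboxylase PDC5 had 2.32 (spots 2.24 and 2.41), ADH1, which makes ethanol, had 1.79, and PDC1 had 1.74. ADH2, which oxidises ethanol, stood at 1.42 and the mitochondrial aldehyde dehydrogenase ALD4 at 1.39. The stress-induced cytosolic aldehyde dehydrogenases ALD2 and ALD3 were the lowest at −0.44 and −0.69. The tricarboxylic acid cycle, the mitochondrial route that oxidises acetyl-CoA, stood as high as many fermentative genes, with 13 of 16 members at least 1 above and a median of 1.29. ACO1, aconitase, had 1.93 and MDH1, mitochondrial malate dehydrogenase, had 1.77. Its lowest members were the membrane anchor of succinate dehydrogenase SDH3 at 0.58 and the minor citrate synthase CIT3 at −0.27.

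Pyruvate dehydrogenase, which links glycolysis to this cycle, was split by function. The subunits PDA1 (2.16), PDB1 (1.97) and LAT1 (1.77) form the catalytic core and were the 3 members at least 1 above. PDX1, the binding protein of the complex, lay at 0.54, the phosphatases PTC5 and PTC6 at 0.73 and 0.18, and the kinase PKP1, which switches the complex off, at −0.29. In the pentose phosphate pathway, which supplies NADPH and ribose, 5 of 13 genes passed 1 unit and the median was 0.28. The transaldolase TAL1 at 2.08 and glucose-6-phosphate dehydrogenase ZWF1 at 1.96 were its highest. The phosphogluconolactonase SOL4 at −0.36 and ribose-5-phosphate ketol-isomerase RKI1 at −0.78 were its lowest. GND1, phosphogluconate dehydrogenase, averaged 0.61 from spots at −1.19 and 2.41, so its place is not settled by these data.

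Gluconeogenesis and the glyoxylate cycle, which build sugars from nonfermentable carbon, gave one of the lowest lists, with a median of −0.41 and 5 of 20 genes above 0. FBP1, fructose-1,6-bisphosphatase, lay at −0.83, ICL1, isocitrate lyase, at −0.82, and ACS1, the acetyl-CoA synthetase used in respiratory growth, at −1.06. The highest of the list were ACS2, the acetyl-CoA synthetase used on glucose, at 1.63 and pyruvate carboxylase PYC1 at 1.33. Over the 5 members with more than 1 spot the list median was 0.04. Glycerol metabolism had a median of 0.12. Its highest members make glycerol, with GPD1, glycerol-3-phosphate dehydrogenase, at 1.91 and the phosphatase GPP2 at 1.03. GUT1 and GUT2, which consume it, lay at 0.03 and 0.05 (spots of GUT2 −0.76 and 0.85), and GCY1 at −0.30 and GUP2 at −0.61 were the lowest. Reserve carbohydrates gave 5 of 20 genes at least 1 above (median 0.40). UGP1, which makes UDP-glucose, had 1.23 and TPS1, trehalose-6-phosphate synthase, had 1.19, while the glycogenins GLG2 and GLG1, which prime glycogen, had −0.58 and −0.71.

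Uptake and sensing of sugar lay near the array median. Hexose transporters had a median of −0.08 over 20 genes. The near-identical high-affinity carriers HXT7 and HXT6 were highest at 1.20 and 0.94, and HXT9 and HXT14 lowest at −0.73 and −0.77. Regulators of glucose repression had a median of 0.21, led by the corepressor subunits TUP1 at 1.81 and CYC8 at 0.84. The DNA-binding repressors MIG1 (−0.81), MIG2 (−0.65) and MIG3 (−1.15) and the glucose-signal regulator STD1 (−1.0025) closed the list. In the Ras and protein kinase A list (median 0.20), BCY1, the inhibitory subunit of the kinase, had 1.63 and SRV2, the adenylate cyclase-associated protein, had 1.14. RAS1 lay at −0.46 and the phosphodiesterase PDE2 at −1.22.

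**Figure D2:**
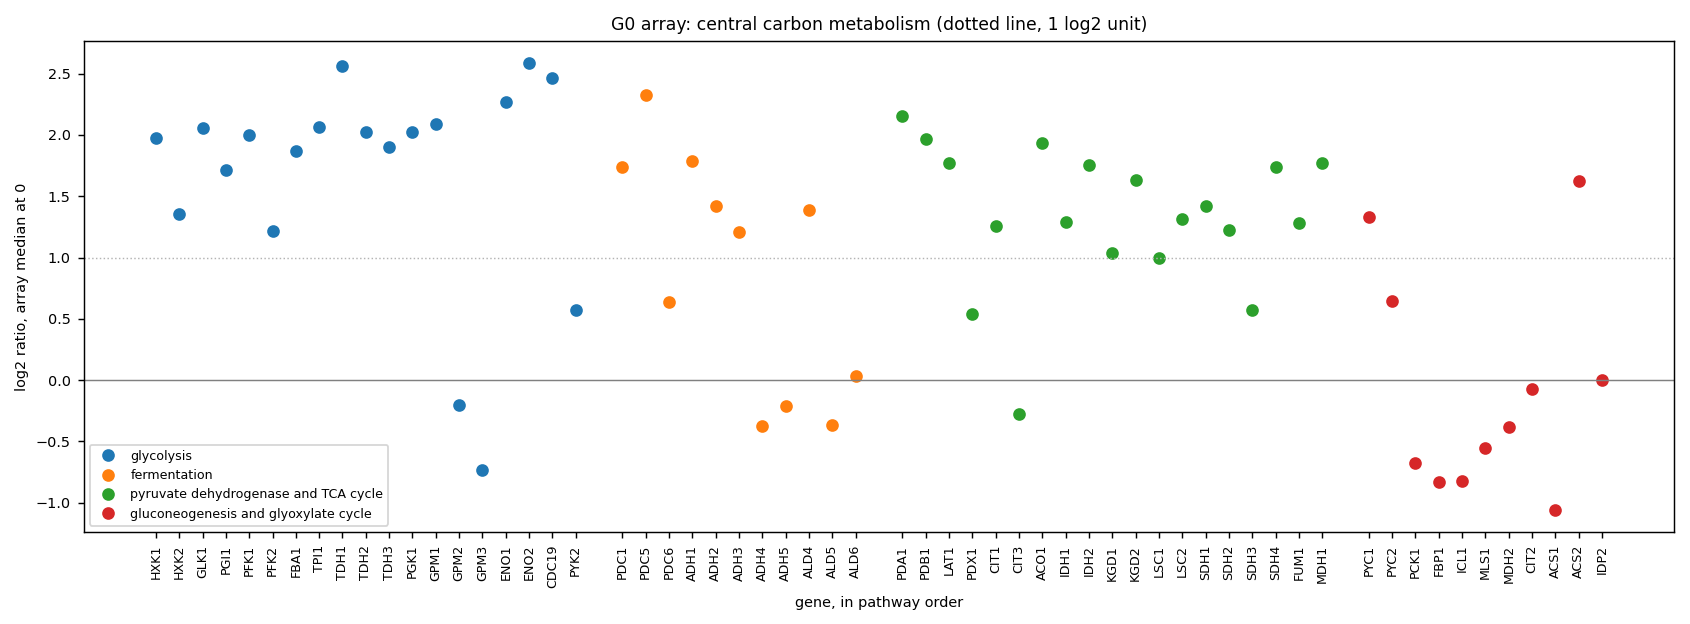
Genes of central carbon metabolism stand along the horizontal axis in pathway order, coloured by list as in the legend, and the vertical axis is the log2 ratio with the array median at 0 and a dotted line at 1. Most glycolytic points gather near 2, with PYK2, GPM2 and GPM3 well below. Most genes of gluconeogenesis and the glyoxylate cycle lie below 0. ACS2 at 1.63 and PYC1 at 1.33 are the highest of them, and PYC2, with spots at 0.52 and 0.77, also lies above 0.

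Many of these steps are served by a pair of related genes, and 31 of 32 listed pairs were measured. The gene listed first, usually the one known as the main form in growing cells, was higher in 24 pairs, by 1 unit or more in 14, and the second was higher in 7. The median difference, first minus second, was 0.85. The widest gap was that of the acetyl-CoA synthetases, where ACS2 exceeded ACS1 by 2.69. Phosphoglycerate mutase GPM1 at 2.09 exceeded GPM2 by 2.30, and the ADP/ATP carrier PET9 at 1.52 exceeded AAC1 at −0.76 by 2.28. For citrate synthase the difference was 1.33, from CIT1, in mitochondria, at 1.26 and CIT2, of the glyoxylate cycle, at −0.07. Only the aldehyde dehydrogenases went the other way by more than 1 unit among the 31 pairs, with ALD6, the cytosolic form, at 0.03 and ALD4 at 1.39, a difference of −1.36. Several pairs were high on both sides, among them ADH1 and ADH2, ENO2 and ENO1, and the Hsp90 proteins HSC82 at 1.71 and HSP82 at 1.94. Which gene is named first follows prior knowledge, and pairs of similar sequence may share signal. The pairs were also chosen with earlier results of these data known, so the counts describe the listed pairs only. Other partners could change them. SSB1 and SSB2 were not a listed pair, and PDC1 (1.74) was set against PDC6 (0.64) and not against PDC5 (2.32).

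The translation apparatus was divided between its factors and the ribosomal proteins. Elongation and termination factors had a median of 1.20, with 9 of 15 genes at least 1 above. EFT2 and EFT1, which encode the same elongation factor 2, had 2.26 and 1.80. The fungal elongation factor 3 YEF3 had 1.49. The ribosome recycling factor RLI1 at 0.49 and the minor elongation factor HEF3 at −0.07 were lowest. Initiation factors stood lower. The list of cap binding and poly(A) binding proteins had a median of 0.67, from TIF3, eIF4B, at 1.63 and TIF2, eIF4A, at 1.29 down to the helicase DBP1 at −0.49 and the nuclear cap-binding subunit CBC2 at −0.49. eIF2 and its exchange factor eIF2B had a median of 0.45, with GCD11 (0.94) and GCD6 (0.87) highest and GCD7 (−0.16) and SUI2 (−0.29) lowest. The eIF3 and eIF1 list had a median of 0.37, with FUN12, eIF5B, at 0.87 and HCR1 at 0.76 highest and PRT1 at −0.11 and SUI1, eIF1, at −0.72 lowest. Neither of these 2 lists had a member beyond 1 unit.

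All 21 cytosolic aminoacyl-tRNA synthetases, which charge tRNAs with amino acids, lay above the median, 13 of them by at least 1. GUS1, for glutamate, had 2.07 and GRS1, for glycine, had 1.75, while ALA1, for alanine, had 0.64 (spots −0.32 and 1.59) and TYS1, for tyrosine, had 0.55. Their 14 mitochondrial counterparts had a median of 0.09 and none beyond 1 unit, from AIM10 at 0.68 and MSE1 at 0.49 to MSM1 at −0.19 and MSR1 at −0.53. Enzymes that modify tRNA had a median of −0.04. This list holds the highest gene of the array, the pseudouridine synthase PUS9, at 5.30 from a single spot, followed by the Elongator subunit ELP2 at 0.90. TAD1 at −0.92 and the dihydrouridine synthase DUS4 at −0.93 were lowest.

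In the list on the Gcn2 kinase pathway and mRNAs with upstream reading frames, the median was 0.05. LEU4, isopropylmalate synthase, had 1.75 and GCN2, the kinase, had 0.67. GCN4, the transcriptional activator of this pathway, lay at −0.93 (percentile 5.88 of all genes) and CBS1, an activator of mitochondrial cytochrome b translation, at −1.38. Ribosome-bound chaperones had a median of 0.44. SSB2, an Hsp70 that binds nascent chains, had 1.65 and its partner SSZ1 had 1.58, while the acetyltransferase subunits NAT3 and MDM20 had −0.30 and −0.38. The near-identical SSB1 averaged −0.11 from 3 spots, at odds with SSB2 on its single spot.

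Cytosolic ribosomal proteins spread widely around the array median. The 77 genes of the large subunit had a median of −0.03, with 4 at least 1 above and 12 at least 1 below. Its 8 members with more than 1 spot had a median of −0.84. The 55 genes of the small subunit had a median of −0.11, with 6 above and 9 below by that amount. In the large subunit the highest were RPP0, of the stalk, at 1.55, RPL4B at 1.33, RPL4A at 1.18 and RPL7A at 1.15. The lowest were RPL41A at −2.61 (spots −2.86 and −2.36), RPL39 at −2.24, RPL41B at −2.02 and RPL37B at −1.67. In the small subunit RPS0A (1.29), RPS4B (1.21), RPS6A (1.19) and RPS0B (1.07) led, and RPS30B (−2.40), RPS29A (−1.71), RPS27A (−1.55) and RPS29B (−1.53) closed the list. The order followed gene span to a degree. Value and gene span had a rank correlation of 0.40 in the large subunit and 0.50 in the small one, described across genes with no test. Span includes introns, so it is not coding length. RPL39 and RPS30B, among the lowest here, span 542 and 603 bases.

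Most ribosomal proteins are encoded by 2 copies of nearly the same sequence, and 55 such pairs were measured. The copies differed by a median of 0.303, close to the median of 0.281 between 2 spots of 1 gene, and 43 pairs lay on the same side of the array median. Across these pairs the Pearson correlation was 0.781 and the Spearman correlation 0.806, given as a description, since paralogous spots can take up the same mRNA. The RPS30 pair alone differed by 1 unit or more, with RPS30A at 0.49 and RPS30B at −2.40. The value of RPS30A is the mean of spots at −1.48 and 2.46, so the gap rests on 1 of its spots.

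**Figure D3:**
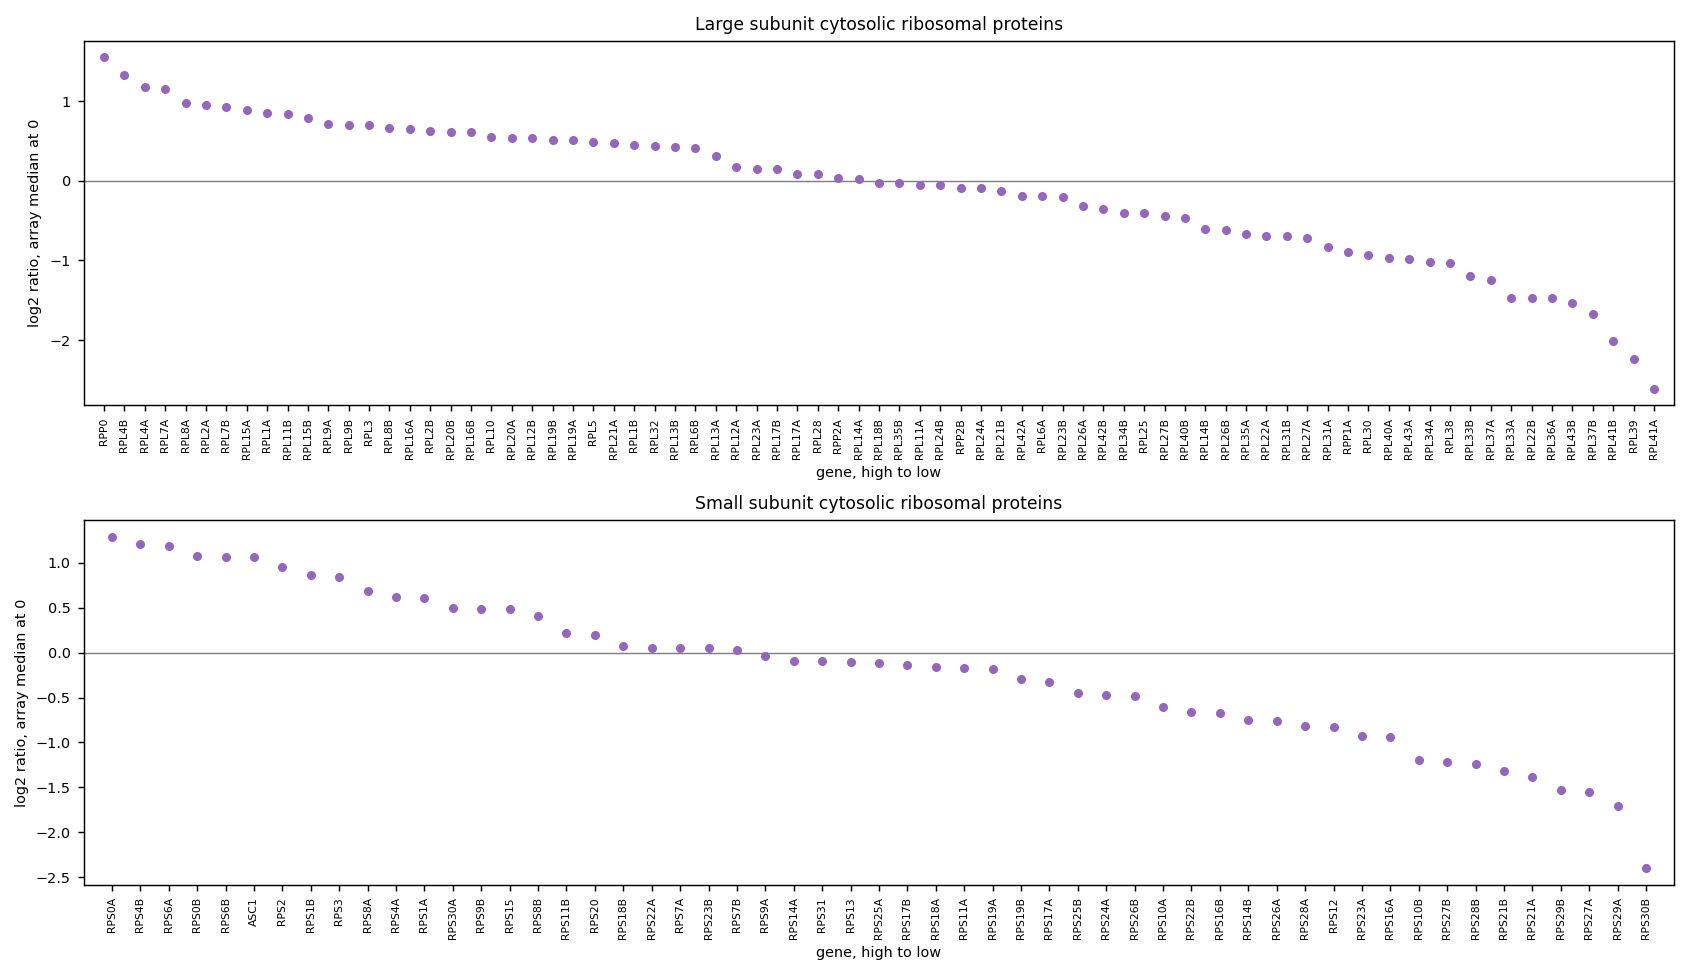
Ribosomal protein genes of the large subunit (upper panel) and the small subunit (lower panel) are ordered from high to low along the horizontal axis, and the vertical axis is the log2 ratio with the array median at 0. Both panels run through 0 without a step, from RPP0 at 1.55 to RPL41A at −2.61 and from RPS0A at 1.29 to RPS30B at −2.40.

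The machinery that makes ribosomes was close to or below the median. The small subunit processome, which processes pre-rRNA, had a median of 0.07, with 2 members at least 1 above and 5 at least 1 below. NOP1, fibrillarin, had 1.79 and UTP14 1.29, while UTP6 had −1.35 and BUD21 −1.52. Late 40S assembly factors had a median of −0.16, from TSR1 at 0.75 and LTV1 at 0.38 to PNO1 at −0.63 and the kinase RIO1 at −0.75. The 60S assembly factors had a median of −0.11, from the methyltransferase SPB1 at 1.01 and SDA1 at 0.76 to RRS1 at −1.18 and the GTPase NOG2 at −1.29. RNA polymerases I and III, which transcribe rRNA and tRNA genes, had a median of −0.23 with no member at least 1 above. Their large subunits RPA135 (0.70) and RPA190 (0.60) were the highest, and the initiation factor RRN9 (−1.16) and the small subunit RPA12 (−1.41) the lowest. The exosome, which trims and degrades RNA, had a median of −0.22, with the nuclease DIS3 at 0.99 and RRP43 at 0.33 highest and TRF5 at −0.79 and AIR1 at −0.92 lowest.

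Mitochondrial functions outside the tricarboxylic acid cycle divided by component. ATP synthase subunits had a median of 0.60. The catalytic subunits ATP1 and ATP2 had 1.67 and 1.50, while the small regulatory protein STF2 had −0.58 and the epsilon subunit ATP15 had −1.88 (spots −1.93 and −1.83). In the cytochrome bc1 and cytochrome c list (median 0.09), RIP1, the iron-sulfur protein, had 1.81 and the core protein COR1 had 1.76, whereas the small subunits QCR9 and QCR6 had −0.69 and −1.68. Cytochrome oxidase subunits had one of the lowest medians, −0.50, with COX13 at 0.97 and COX4 at 0.65 highest and COX5B, the hypoxic form of subunit 5, at −0.76 and COX9 at −1.33 lowest. Factors that assemble this enzyme had a median of −0.08, from COX15, of heme A synthesis, at 1.18 and MSS51 at 0.97 to COX18 at −0.67 and COX14 at −1.68. In coenzyme Q synthesis (median 0.25), COQ1, the prenyl transferase, stood at 4.13 from a single spot and the methyltransferase COQ5 at 1.58, with COQ4 at −0.11 and COQ9 at −0.18 at the other end.

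Mitochondrial ribosomal proteins were mostly below the median. In the large subunit 17 of 43 genes lay above 0 (median −0.24), from MNP1 at 0.87 and MRPL10 at 0.73 to MRPL20 at −1.07 and MRPL39 at −1.52. In the small subunit 9 of 31 did so (median −0.28), from MRP51 at 1.13 and MRPS18 at 0.65 to RSM7 at −0.93 and MRP10 at −1.16. Protein import (median 0.02) ran from the chaperones HSP60 at 2.03 and SSC1 at 1.94 to the small import proteins TIM10 at −1.29 and TOM6 at −1.46. Carriers of the inner and outer membranes had a median of 0.29, with the phosphate carrier MIR1 at 1.89 and PET9 at 1.52 highest and LEU5 at −0.80 and the iron carrier MRS3 at −0.93 lowest.

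Amino acid synthesis was a further high theme. Sulfate assimilation and methionine synthesis had 18 of 27 genes at least 1 above (median 1.50). MET10, a sulfite reductase subunit, had 2.55, MET3, ATP sulfurylase, had 2.41, and MET17, which fixes sulfide, had 2.12. MET12 at −0.19 and SAM4 at −0.22 were the only members below 0. The lysine, threonine and serine list had 15 of 26 genes at least 1 above (median 1.18), with the homoserine pathway enzymes HOM6 and HOM2 at 2.0005 and 1.98. AAT1, mitochondrial aspartate aminotransferase, at −0.17 and the phosphatase SER2 at −0.49 were its lowest. Branched chain synthesis had 9 of 11 genes at least 1 above (median 1.17), led by LEU4 at 1.75 and threonine deaminase ILV1 at 1.62. ILV5, acetohydroxyacid reductoisomerase, at −0.03 and LEU2, isopropylmalate dehydrogenase, at −1.29 stood apart from the other 9.

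Aromatic amino acid and histidine synthesis had a median of 0.64, from tryptophan synthase TRP5 at 1.83 and the aminotransferase ARO8 at 1.79 to HIS3 at −0.97 and TRP1 at −1.26. Glutamate, glutamine and arginine synthesis had a median of 0.37, from PRO3, of proline synthesis, at 1.64 and ARG7 at 1.51 to GDH3, the minor glutamate dehydrogenase, at −0.37 and proline oxidase PUT1 at −0.43. Purine synthesis had a median of 0.32, with ADE6 at 1.54 and adenylate kinase ADK1 at 1.40 highest and ADE8 at −0.77 and the salvage enzyme HPT1 at −1.19 lowest. Pyrimidine synthesis had a median of 0.22, with URA3 at 1.02 and URA5 at 0.80 highest and URA10 at −0.51 and the kinase URA6 at −0.71 lowest. Permeases for amino acids and other nitrogen sources were spread around a median of 0.24. The S-methylmethionine and S-adenosylmethionine permeases MMP1 and SAM3 had 1.62 and 1.23, the glutamine permease GNP1 had 1.53, and the arginine permease relative ALP1 and the allantoate permease DAL5 had −0.97 and −1.15.

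The secretory route and cell surface stood above the median in several lists. COPI and COPII coats, which bud vesicles from the Golgi and the endoplasmic reticulum, had 23 of 25 genes above 0 and 10 at least 1 above (median 0.88). SEC23 had 2.01 and SEC21 1.85, while ERV14, a cargo receptor, had −0.19 and SEC16, a scaffold of exit sites, had −0.39. Translocation into the endoplasmic reticulum had a median of −0.03, with the channel SEC61 at 1.72 and OST3 at 1.49 highest and the small proteins SPC1 at −0.92 and SRP14 at −0.98 lowest. Folding in the endoplasmic reticulum had a median of 0.26, with the Hsp70 KAR2 at 1.73 and disulfide isomerase PDI1 at 1.50 highest and UBC7 at −0.86 and SIL1, the exchange factor of KAR2, at −1.10 lowest. The exocyst and vesicle fusion list had a median of 0.09, with the myosin MYO2 at 1.46 and the GTPase SEC4 at 1.10 highest and SEC2 at −0.67 and SNC2 at −0.86 lowest.

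Cell wall and secreted glycoproteins had 19 of 52 genes at least 1 above (median 0.56). CCW14, a wall mannoprotein, had 2.43 (spots 2.34 and 2.52) and the glucanase-like SCW4 2.21. The flocculin FLO1 at −0.80 and the agglutinin subunit AGA2 at −0.98 were lowest. Over the 8 members with more than 1 spot the median was only −0.03. Enzymes that build glucan, chitin and mannan had 34 of 39 above 0 (median 0.64), with the mannose-phosphate isomerase PMI40 at 1.91 and the mannosyltransferase PMT4 at 1.59 highest and PMT5 at −0.40 and KNH1 at −1.14 lowest. Actin patches and cables had 35 of 37 above 0 (median 0.70), led by actin itself, ACT1, at 1.80 and ABP1 at 1.78, with SAC7 at −0.02 and the formin BNR1 at −0.19 lowest. Septins and bud site proteins had a median of 0.12, with RHO1 at 1.51 and AXL2 at 1.28 highest and BUD8 at −0.62 and RHO3 at −0.88 lowest.

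Lipid synthesis was above the median to different degrees. Ergosterol synthesis had 23 of 26 genes above 0 (median 0.71), with the reductases ERG4 at 1.97 and ERG24 at 1.47 highest and IDI1, isopentenyl diphosphate isomerase, and ARE2, which esterifies sterols, lowest, both at −0.93. Phospholipid and sphingolipid synthesis had a median of 0.32, from the acyltransferase SCT1 at 1.11 and LCB1, of serine palmitoyltransferase, at 1.08 to SUR2 at −0.57 and the kinase EKI1 at −0.74. Fatty acid synthesis and elongation had a median of 0.27, from ETR1 at 1.32 and the elongase ELO3 at 1.12 to acetyl-CoA carboxylase ACC1 at −0.23 and the desaturase OLE1 at −0.60. Peroxisome biogenesis and fatty acid oxidation, in contrast, had 7 of 35 genes above 0 (median −0.31). PEX11, which drives peroxisome division, had 0.89 and PEX18 0.60, while FOX2, of beta oxidation, had −1.12 and PEX27 −1.66.

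Membrane pumps gave wide lists. The plasma membrane list had a median of 0.10, with the proton pump PMA1 at 2.27, its small regulator PMP1 at 2.11, ENA1, a sodium pump, at −1.63 and BOR1, a borate transporter and the lowest gene of the array, at −3.23. Spots of PMP1 ran from 1.15 to 4.03 and those of ENA1 from −5.74 to 1.03, so both means are insecure. The vacuolar ATPase had a median of 0.58, with the catalytic subunit VMA1 at 2.26 and VMA2 at 1.83 highest and VMA10 at −0.42 and the assembly factor PKR1 at −0.49 lowest. All 10 vacuolar hydrolases lay above 0 (median 1.10), from proteinase A, PEP4, at 2.10 and carboxypeptidase Y, PRC1, at 1.71 to AMS1 at 0.14 and PHO8 at 0.03. ABC transporters had a median of 0.23, with STE6, the exporter of a-factor, at 1.29 and YBT1 at 1.15 highest and PDR15 at −1.06 and the sterol importer AUS1 at −1.11 lowest. Autophagy genes had a median of 0.11 and none at least 1 above, from ATG9 at 0.71 and ATG1 at 0.64 to ATG2 at −0.89 and ATG5 at −1.94 (spots −2.01 and −1.87).

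Protein folding and turnover lay above the median. Hsp70, Hsp90 and heat shock chaperones had 11 of 28 genes at least 1 above (median 0.87). The near-identical cytosolic Hsp70 genes SSA2 and SSA1 had 2.44 and 2.21, while the exchange factor FES1 had −0.63 and the membrane protein HSP30 had −0.75. The chaperonin and prefoldin list, with a median of 0.62, parted by complex. All 8 subunits of the CCT ring, which folds actin and tubulin, lay between 0.31 and 1.63, and all 6 prefoldin subunits, which deliver these clients, between −0.83 and −0.31. CCT3 (1.63) and CCT7 (1.47) were highest, and YKE2 (−0.75) and PFD1 (−0.83) lowest. Gene spans in the ring ran from 1584 to 1707 bases and in prefoldin from 330 to 600 bases.

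The proteasome core had 14 of 16 genes above 0 (median 0.55), with PRE2 at 1.22 and PRE4 at 0.87 highest and PRE1 at −0.03 and PRE8 at −0.55 lowest. Its regulatory particle had a median of 0.36. The scaffold subunit RPN1 had 1.57 and the ATPase RPT4 1.25, while RPN8 had −0.31 and RPN2, the other large scaffold, −2.13 from 1 spot. The 6 ATPases of this particle lay between 0.69 and 1.25. Ubiquitin and its conjugation had a median of 0.49, with the segregase CDC48 at 1.97 and UBC4 at 1.82 highest and UBC5, a close relative of UBC4, at −0.70 and UBC9 at −0.94 lowest. Oxidant defence had a median of 0.25, with the peroxiredoxin AHP1 at 2.01 and the reductase GRE3 at 1.84 highest and GPX1 at −0.78 and the minor peroxiredoxin TSA2 at −1.23 lowest.

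Nuclear functions lay mostly near or below the median, nuclear transport excepted. Nuclear pore and export genes had 37 of 46 above 0 (median 0.46), with the export receptor CRM1 at 1.51 and the importin PSE1 at 1.41 highest and MTR2 at −0.55 and GLE1 at −2.48, from 1 spot, lowest. RNA polymerase II and general factors had a median of 0.0025, from the subunit RPB2 at 1.68 and TFG2 at 1.07 to TFB1 and TFB2, both at −0.64. Mediator had 8 of 25 genes above 0 (median −0.25), with SRB8 at 0.43 and NUT1 at 0.41 highest and MED11 at −0.77 and SOH1 at −1.62 lowest. The splicing list had 11 of 46 above 0 (median −0.25), with PRP4 at 0.51 and the helicase BRR2 at 0.48 (spots −0.05 and 1.0005) highest and SMX3 at −1.14 and PRP42 at −1.24 lowest. mRNA decay had a median of 0.06, with PBP1 at 1.70 and the deadenylase subunit PAN2 at 1.35 highest and UPF3 at −0.93 and LSM6 at −1.05 lowest.

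Chromatin remodelling and silencing had a median of 0.19, with the remodellers INO80 at 1.31 and RSC8 at 1.20 highest and RSC30 at −0.74 and the acetyltransferase ESA1 at −0.84 lowest. Histones, by contrast, had 3 of 11 above 0 (median −0.37), with the centromeric variant CSE4 at 0.37 and the linker histone HHO1 at 0.23 (spots −0.83 and 1.28, so its place is not settled) highest and HHT2 at −0.56 and HTA1 at −1.25 lowest. DNA replication had a median of 0.04, with the ribonucleotide reductase genes RNR4 at 1.48 and RNR2 at 1.42 highest and SLD3 at −0.82 and RFA3 at −0.89 lowest. Cyclins and cell cycle kinases had a median of −0.12 and no member beyond 1 unit, from SWI4 at 0.99 and CLN2 at 0.93 to SIC1 at −0.89 and CLB5 at −0.91. The kinetochore and cohesin list had a median of −0.04, with SMC4 at 1.21 and SMC2 at 1.04 highest and DAD2 at −1.08 and SPC24 at −1.40 lowest. In the microtubule list (median −0.01) the tubulins TUB1 (2.03), TUB2 (1.81) and TUB3 (1.52) were the only members at least 1 above, and SPC42 (−0.69) and the motor CIN8 (−0.73) were lowest. The spots of CIN8 lay at −1.66 and 0.20, so its place rests on 1 of them.

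Transcription factors had a median of −0.02 over 63 genes, with GAT1 at 1.11 and SWI5 at 0.81 highest and TYE7, an activator of glycolytic genes, at −1.42 and GZF3 at −1.43 lowest. Of the 37 mating genes (median −0.02), the protease STE24 had 1.22 and KEX1 0.91. HMRA1 at −1.70 and HMRA2 at −2.33 were lowest, and mating-type sequences share stretches between loci, so these spots may not be specific. Meiosis and sporulation genes, which serve diploids that lack nitrogen and fermentable carbon, had 9 of 45 above 0 (median −0.36). SPO22 at 0.55, whose spots lay at −0.83 and 1.92, and SPO14 at 0.47 were highest, and SPO21 at −1.35 and RED1 at −1.39 lowest. In the lowest list, all 22 seripauperin genes (PAU) lay below 0, between −1.55 and −0.47, with PAU2 (−1.55) and PAU12 (−1.37) at the bottom. The PAU genes span 168 to 495 bases. Of all 553 protein-coding genes of 78 to 504 bases, 429 lay below 0, with a median of −0.45. The 12 genes named COS had a median of 0.25, led by COS6 (0.94) and COS2 (0.52). Their gene spans ran from 1125 to 2775 bases, so a shared name need not mean a shared family. Many PAU and COS genes are similar in sequence, so they are not all separate measurements.

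Gene size ran through many of these lists. Gene span here is the distance from start to end in the annotation, introns included. Over the 5530 protein-coding genes it had a Spearman correlation of 0.316 with the value, given across genes as a description. Its sign depends on the assumed direction of the ratio. In 10 groups of nearly equal size, from short to long, the medians were −0.45, −0.18, −0.21, −0.04, 0.01, 0.02, 0.05, 0.08, 0.21 and 0.39. The shortest group held spans of 78 to 504 bases, with 1.81% of its genes at least 1 above and 12.7% at least 1 below. In the longest group, of 2865 bases or more, these shares were 13.9% and 0.906%. The relation was as large without the ribosomal proteins (0.316 over 5398 genes) and over genes with 2 or more spots (0.334 over 952 genes).

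**Figure D4:**
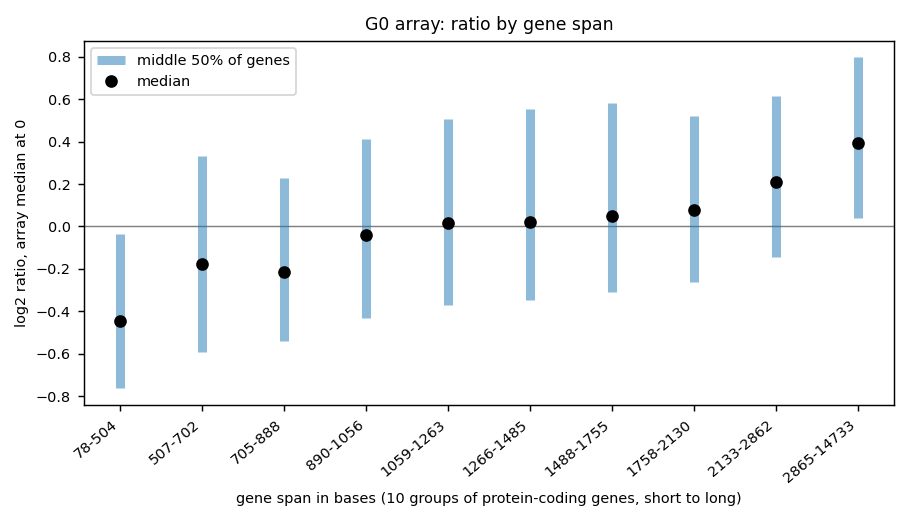
Protein-coding genes are divided into 10 groups by gene span in bases along the horizontal axis, and the vertical axis is the log2 ratio with the array median at 0; points are medians and bars the middle 50% of genes. Medians run from −0.45 in the shortest group to 0.39 in the longest, with a small dip at the third, and the bars of neighbouring groups overlap.

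The same relation appeared inside many of the lists, some of which join separate complexes, as the chaperonin and prefoldin list does. Of 82 lists with 8 or more genes, 67 had a positive rank correlation between value and gene span, the median was 0.258, and 17 reached 0.5. The highest were the ATP synthase at 0.90, the chaperonin and prefoldin list at 0.84, the kinetochore and cohesin list at 0.81 and the vacuolar ATPase at 0.79. In the ATP synthase, ATP1 spans 1638 bases and ATP15 189. Other lists ran against gene span, among them glycerol metabolism at −0.47 and vacuolar hydrolases at −0.37. After the median of its span group was subtracted from each gene, lower glycolysis kept a median of 2.07, gluconeogenesis −0.42 and meiosis −0.34. Histones moved to 0.08, the mitochondrial large subunit to 0.11, cytochrome oxidase subunits to −0.06 and the COS and PAU families to −0.35.

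**Figure D5:**
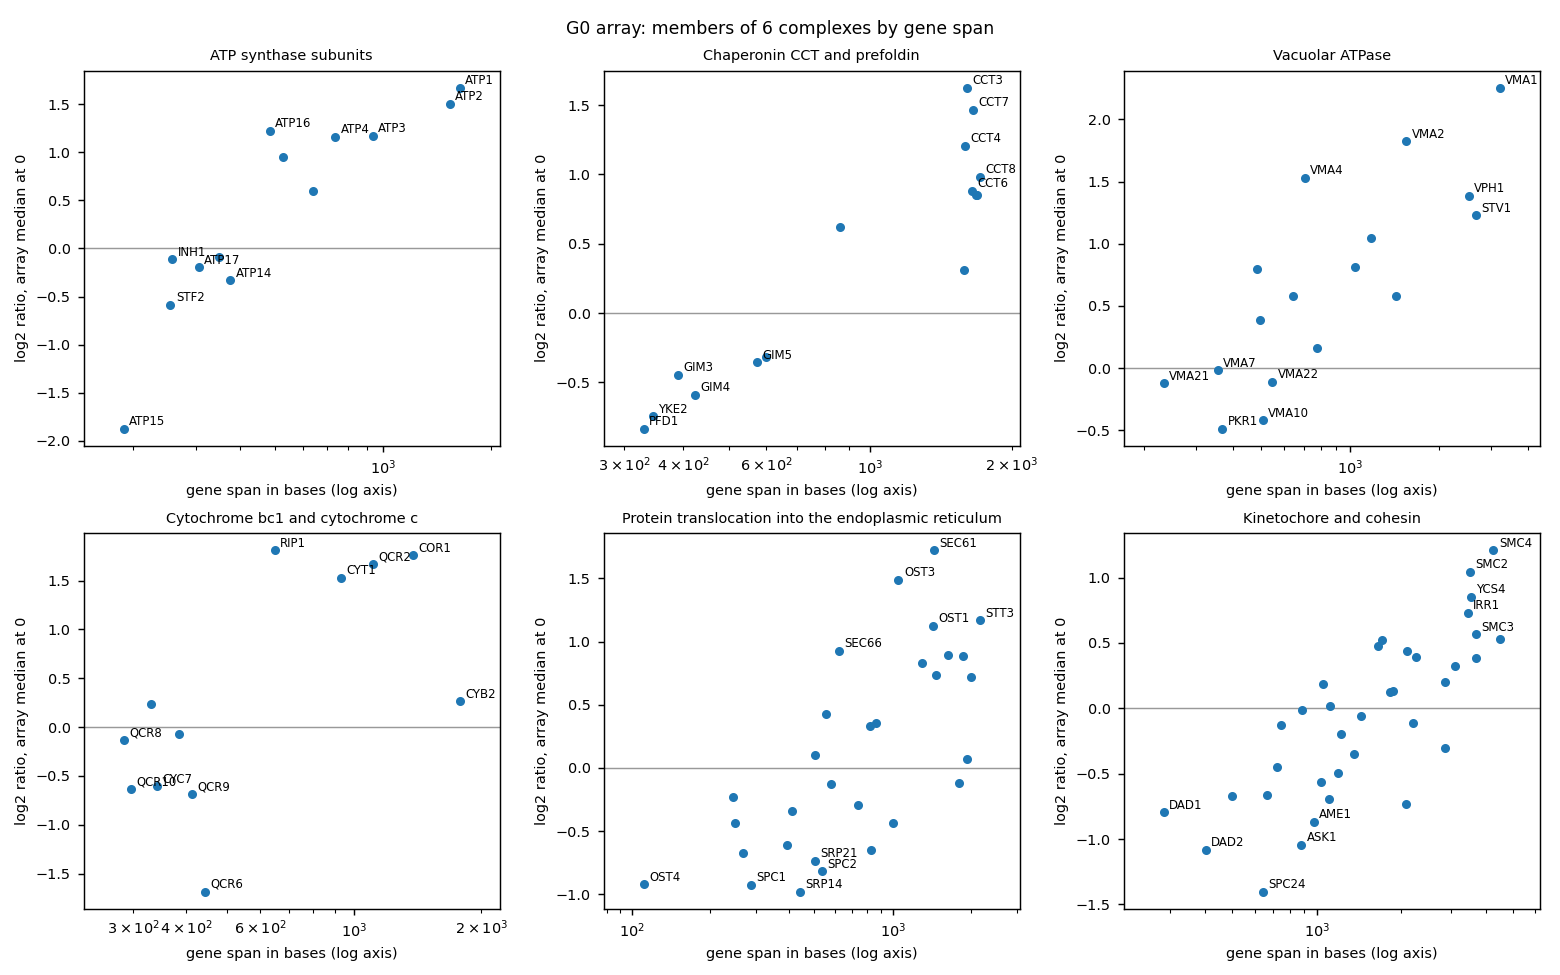
Each panel is 1 gene list, which may join separate complexes, with 1 point a gene. The horizontal axis is gene span in bases on a logarithmic scale, and the vertical axis is the log2 ratio with the array median at 0. The longer subunits lie higher in the ATP synthase, where ATP1 stands at 1.67 and ATP15 at −1.88, and in the chaperonin panel, where the CCT ring lies above 0 and prefoldin below it.

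At the ends of the whole array, single genes outside the strong lists were mixed with members of them. The 15 highest genes were PUS9, COQ1, the arrestin-related ROG3 (3.19), the lipase TGL2 (2.78), ENO2, TDH1, MET10, CDC19 (pyruvate kinase, 2.46), SSA2, CCW14, MET3, PDC5, the pyrophosphatase IPP1 (2.32), the kinase PRR2 (2.31) and ENO1. Among them CCW14, PDC5 and ENO1 had 2 spots. The 15 lowest were BOR1, RPL41A, GLE1, RPS30B, HMRA2, RPL39, ASP3-2 (−2.24) and ASP3-1 (−2.03), which are near-identical asparaginase copies, GDA1, a Golgi diphosphatase (−2.19), RPN2, RPL41B, ATG5, ATP15, HOR7 (−1.84) and NOP19 (−1.82). RPL41A, RPL41B, ATG5 and ATP15 of these had 2 spots, all of which lay at least 1 below the median. Among genes with 2 or more spots, the highest after those named were PMP1, PEP4, SEC23, DDR48 (1.99), HSP82, DPM1 (1.79), LAT1, DPS1, QCR2, TIF3, PIM1 (1.61) and RPN1. The lowest after those named were ENA1, MRPL39, RPL33A (−1.47), YOR342C (−1.41), ARR2 (−1.35), RPS21B (−1.31), TIM10, PRP42, ECM12 (−1.24), PDE2 and PCL8 (−1.18).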

How the data were processed

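The authors deposited 1 log ratio per spot, taken here as log2, for 8832 spots of the G0 array, of which 8700 had a value. The scanner, background correction, spot filter and normalisation behind these values are not stated in the labels. As deposited, the array had a median of 0.0735, which was subtracted. Platform annotation gave 1 gene symbol for 6623 spots and none for 2209. All 5548 genes with a value matched the RefSeq table of assembly R64, which supplied current symbols and gene spans. The 2 other arrays were not used.

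Spots of a gene were averaged. Gene lists, isozyme pairs and named genes were chosen with earlier results of these data known. Named were the highest 2 and lowest 2 members of each list, 10 at most per end for ribosomal subunits, the 15 highest and lowest genes, and the same for genes with 2 or more spots; others were chosen after their values were seen. So was the split of lists into complexes and families. Protein length had been planned, and gene span was used because no protein table was at hand. Counts use a fixed size of 1 log2 unit. Calculations ran in Python 3.11.15 with pandas 2.3.3 and numpy 2.4.6. On simulated data only the SD of a single spot and the median of the lower glycolysis list were tested. Alternatives changed centring, spot averaging, extreme spots, spot number and gene span. The number of arrays limits the precision.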

Additional observations from a re-analysis of the deposited data

How the results depend on the processing

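For each of the 83 list medians, 5 alternatives moved the value by less than the SD of 1 spot, 0.453. These were centring within 32 blocks of consecutive row numbers, no centring, the median of spots in place of the mean, leaving out the outer 0.5% of spots, and subtracting the median of the span group. The sign changed in 4, 7, 0, 2 and 14 lists in that order, and no list that changed sign under these 5 lay farther from 0 than 0.37. Without centring every list moves by 0.0735, and a span group median moves a gene by at most 0.4475. Staying under 0.453 was therefore fixed in advance for both and shows nothing about the lists. The SD of 1 spot is also not the error of a list median, so it serves only as a yardstick. With only genes of 2 or more spots, 34 lists had enough genes. The sign changed in 8 of them, whose medians over all genes lay up to 0.56 from 0. Gluconeogenesis and the glyoxylate cycle was 1 of these, moving from −0.41 to 0.04 over 5 genes. Of the 34 lists, 32 stayed within that SD. The exceptions were cytosolic large subunit ribosomal proteins, at −0.84 over 8 genes, and cell wall and secreted glycoproteins, at −0.03 over 8 genes, and the cause was not tested beyond this smaller set of genes. Here 64 genes lay at least 1 above the median (6.67% of 960) and 35 at least 1 below (3.65%), smaller shares than the 9.26% and 4.56% of all genes, and the cause was not tested. Block medians ran from −0.34 to 0.34. No paired analysis was possible because there was 1 array.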

Other observations

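Genes that serve as selectable markers in laboratory strains, picked after their values were seen, were uneven within their own pathways. LEU2 lay at −1.29, the lowest of 11 branched chain genes, and TRP1 at −1.26 and HIS3 at −0.97 were the lowest of 22 aromatic and histidine genes. ADE2 lay at −0.71. URA3 at 1.02, LYS2 at 1.67 and MET17 at 2.12 were at least 1 above the median. The strain genotype is not given in the sources used here, and its part in these values was not tested.

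The 2113 spots with a value but no gene symbol had an SD of 1.10, against 0.712 for the 6587 named spots. Of the unnamed spots 14.9% lay at least 1 above the median and 9.13% at least 1 below it, against 9.67% and 4.71% of named spots, and they ran from −7.09 to 6.88. Pseudogenes and genes known only by a systematic name were close to the array median. The 18 pseudogenes had a median of −0.14 with none beyond 1 unit, and the 445 genes with only a systematic name had a median of −0.12, with 31 at least 1 above and 23 at least 1 below.

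Some genes had repeat spots that contradict each other. The 3 spots of ENA1 spanned −5.74 to 1.03, those of VAM6, of vacuolar fusion, −1.04 and 2.31, and those of PSP2 −0.72 and 1.93. Of the 7 LSM proteins, of mRNA decay and splicing, 6 lay below 0 (median −0.49), and of the 7 Sm proteins of the spliceosome 6 did so (median −0.49), on genes that span 234 to 591 bases. These values are near those of all genes of 78 to 504 bases, of which 429 of 553 lay below 0 with a median of −0.45.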
